A study of Bos taurus with 3 samples.

Results

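The 9 genes described here code for elastin and the proteins that build, decorate and cross-link elastic fibres: ELN, FBN1, MFAP2, MFAP4, MFAP5, FBLN1, FBLN5, EMILIN1 and LOX. They were chosen by symbol out of 27270 genes listed for every library, and each symbol matched 1 row. Rumen wall from the ventral sac of 3 newborn Holstein calves was measured by droplet single-cell RNA sequencing, with 1 library per calf (calves 1, 2 and 3). The outer muscle layers were stripped off before the tissue was digested with trypsin, collagenases, dispase, hyaluronidase and DNase, so wall muscle outside the mucosa was removed by design. All 3 animals belong to the same group (newborn, with no treatment named), and every comparison below is between cell classes within these calves. A level is the number of unique molecular identifiers (UMIs, counted mRNA molecules) of a gene per 10000 UMIs summed over the cells of a calf and class.

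An elastic fibre has a core of cross-linked elastin laid on a scaffold of fibrillin microfibrils. Fibulins and EMILIN1 link tropoelastin to the scaffold, the small glycoproteins MFAP2 and MFAP5 decorate the microfibrils, and lysyl oxidases make the cross-links that render elastin insoluble. The fibres let stretched tissue recoil, in vessel walls and in the connective tissue under epithelia, and most elastin is deposited around birth, largely by fibroblasts and smooth muscle cells. Microfibrils also occur without elastin, for instance below epithelia, where they anchor the basement membrane and hold latent TGF-beta.

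The libraries held 82263092 to 106145091 UMIs, and 4545, 9642 and 9481 barcodes of calves 1, 2 and 3 were kept (23668 in all), each with 500 to 4000 genes. Clusters built without the 9 genes were named from marker genes alone, so each name below means a population like that type. They gave 145 DLK1-type fibroblasts (marked by DLK1), 318 PAM-type fibroblasts (marked by CXCL14 and LUM), 317 mural, 1331 endothelial, 19989 epithelial and 825 immune cells, and 743 cells stayed unnamed. Of the 8 fibroblast markers, 8 were detected in at least 10% of the DLK1-type and 7 in the PAM-type cells, and the lists for the subsets had 6 of 8 and 6 of 7 markers detected, while 7 endothelial markers summed to 0.167 and 0.271 UMIs per 10000 there against 64.7 in endothelial cells. Calf 1 gave few stromal cells: 6 DLK1-type, 9 PAM-type and 6 mural cells. Its DLK1-type and mural cells also carried epithelial marker levels of 115 and 162 UMIs per 10000, against 7.56 to 28.0 in these classes of calves 2 and 3 and 195 in its own epithelium. Median depth ran from 1773.5 UMIs per PAM-type cell to 7962 per epithelial cell, and 87 barcode sequences occurred in more than 1 library.

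Both fibroblast subsets carried most of the elastic fibre genes, with MFAP5 nearly absent from PAM-type cells and EMILIN1 nearly absent from both subsets. The other classes carried smaller parts of the set. Cells thinned to 2000 UMIs held on average 6, 5.37 and 5.50 of the 9 genes in DLK1-type fibroblasts of calves 1, 2 and 3, and 3.83, 3.91 and 4.19 in PAM-type fibroblasts. The same count was 1, 0.988 and 0.752 in mural cells, 0.591, 0.683 and 0.553 in endothelial cells and 0.255, 0.226 and 0.194 in epithelial cells. The subsets and classes did not overlap between calves, but only 4 and 6 fibroblasts of calf 1 were deep enough to enter. Immune cells held 0.143, 0.164 and 0.0501, and how much of the values in the lower classes is free RNA was not tested. Thinning left out 45.5% of DLK1-type, 66.4% of PAM-type and 1.13% of epithelial cells as too shallow.

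**Figure D1:**
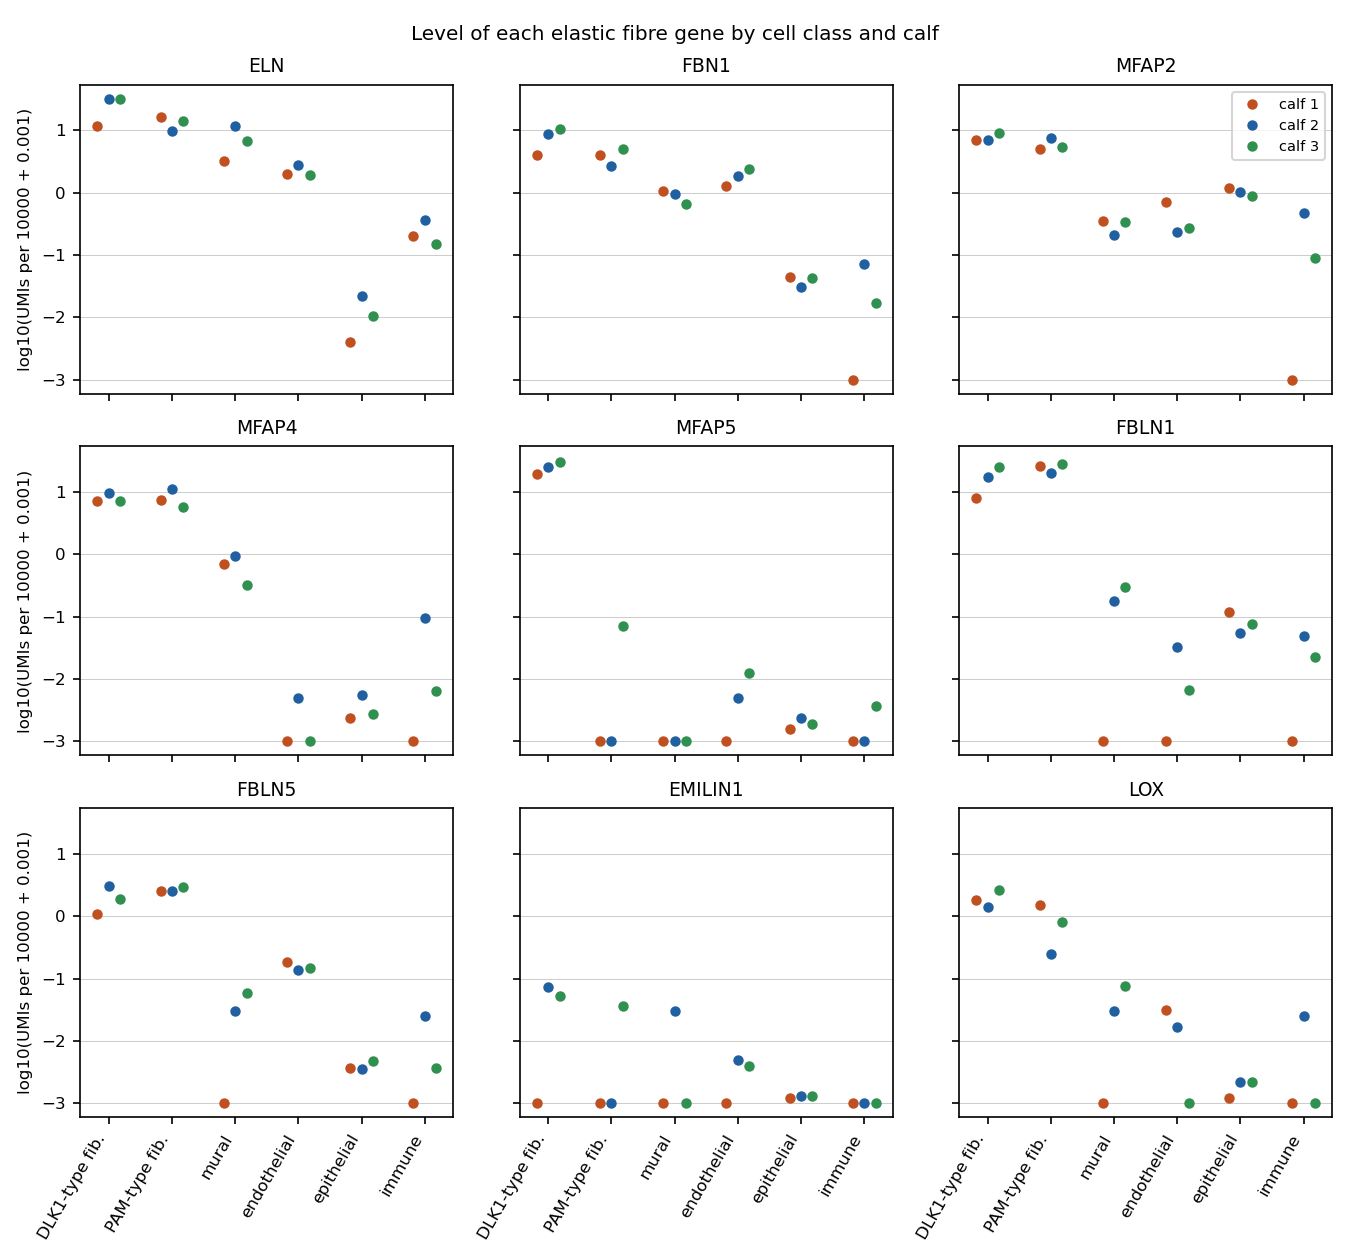
Level of each gene as log10(UMIs per 10000 + 0.001) on the vertical axis in 6 cell classes, 1 point per calf, with points at -3 standing for no UMI. ELN, FBN1 and FBLN5 stepped down from fibroblasts through endothelial to epithelial cells, MFAP5 sat high only in DLK1-type fibroblasts, and EMILIN1 lay near the bottom in all classes.

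ELN (ENSBTAG00000019517), the precursor of the elastic core, was found in all stromal classes and was close to absent from the epithelium. DLK1-type fibroblasts of calves 1, 2 and 3 held 11.7, 32.1 and 32.4 ELN UMIs per 10000, and PAM-type fibroblasts 16.6, 9.94 and 14.1. The level was 3.19, 11.7 and 6.70 in mural cells and 2.00, 2.74 and 1.93 in endothelial cells. The DLK1-type cells stood above the PAM-type in calves 2 and 3 and below them in calf 1, and the mural level of calf 2 lay within the PAM-type range, so these neighbours in the order overlap. In the epithelium ELN gave 0.00302, 0.0207 and 0.00949 UMIs per 10000, below the 0.199, 0.359 and 0.149 of immune cells.

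The classes differ in size, and the ELN UMIs of the recovered cells divided among them in another order than the levels. Of 4310 ELN UMIs, 33.1% lay in endothelial cells, 25.6% in DLK1-type fibroblasts, 17.7% in mural cells, 16.6% in PAM-type fibroblasts and 5.06% in epithelial cells. The endothelial share was the largest in every calf, at 42.3%, 35.0% and 30.8%. Mural cells held 5.77%, 20.1% and 16.3% against 21.2%, 14.3% and 18.5% in PAM-type fibroblasts, so that order changed between calves. DLK1-type fibroblasts made up 0.613% of the kept cells. These shares describe cells that survived digestion, not the intact wall.

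ELN was also unevenly spread from cell to cell. The 10% of mural cells with the most ELN held 70.8% of the mural ELN UMIs in calf 2 and 69.7% in calf 3, with up to 51 and 56 UMIs in a cell. In PAM-type fibroblasts that share was 38.0% and 28.2%, and no cell had more than 11 ELN UMIs. DLK1-type fibroblasts stood at 51.0% and 68.3%, with up to 76 and 127 UMIs in a cell, so in both calves their ELN was more concentrated than in PAM-type and less than in mural cells.

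**Figure D2:**
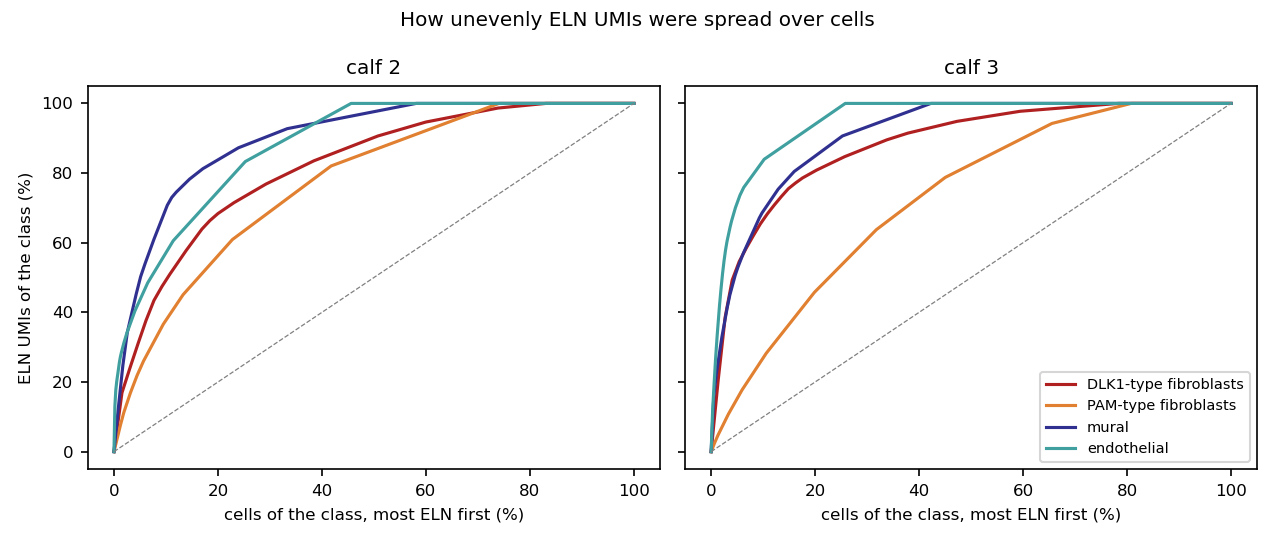
Cumulative percentage of a class's ELN UMIs (vertical axis) over its cells ordered from most to least ELN (horizontal axis, percent of cells) in calves 2 and 3, with a dashed line for an even spread. At 10% of the cells the PAM-type curve had reached the smallest share, 38.0% and 28.2%, and the mural curve 70.8% and 69.7%.

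The ELN-rich mural cells differed from the other mural cells in their muscle genes. Their summed level of 5 smooth muscle markers (MYH11, DES, ACTG2, CNN1 and SYNPO2, contractile and filament proteins) was 78.3 and 128 UMIs per 10000 in calves 2 and 3, against 29.3 and 11.7 in the remaining mural cells. Their summed level of 6 pericyte markers, among them RGS5, ABCC9 and KCNJ8, was 6.37 and 5.31, against 27.7 and 38.4. FBN1 did not follow: it stood at 0.621 and 0.366 UMIs per 10000 in the ELN-rich cells and 1.046 and 0.742 in the others. The ELN-rich group had 12 and 20 cells, a median of 5073 and 4359 UMIs against 2293 and 2299, and epithelial marker levels of 35.1 and 28.7 against 17.6 and 13.0. Since the cells were picked for ELN counts, which grow with depth, these values are a description without a test, and the part of depth in them was not tested. In DLK1-type fibroblasts, the ELN-richest 10% (7 and 8 cells) had smooth muscle markers at 0 in both calves, against 1.06 and 1.05 UMIs per 10000 in the others. With so few cells and counts, these marker levels cannot be told apart. FBN1 stood at 19.7 and 23.9 in the ELN-richest cells against 7.29 and 8.12 UMIs per 10000 in the others.

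FBN1 (ENSBTAG00000002278), the fibrillin that polymerizes into microfibrils, had its highest levels in fibroblasts, followed by endothelial cells. It reached 4.02, 8.87 and 10.6 UMIs per 10000 in DLK1-type fibroblasts of calves 1, 2 and 3 and 4.03, 2.69 and 4.99 in PAM-type fibroblasts. Endothelial cells held 1.27, 1.84 and 2.38, and mural cells 1.06, 0.966 and 0.664. The endothelial level exceeded the mural level in every calf. Endothelial cells held 14.8%, 51.2% and 54.9% of the FBN1 UMIs of calves 1, 2 and 3, and epithelial cells 74.9%, 21.8% and 18.8%. Over all 2694 FBN1 UMIs the shares were 49.4% endothelial, 25.7% epithelial, 12.6% DLK1-type and 8.43% PAM-type. The number of FBN1 UMIs per ELN UMI, which compares the makeup of the classes, was 0.344, 0.276 and 0.329 in DLK1-type and 0.242, 0.271 and 0.355 in PAM-type fibroblasts. The ratio was 0.0825 and 0.0992 in mural cells of calves 2 and 3 (0.333 in calf 1, from 3 FBN1 and 9 ELN UMIs) and 0.636, 0.671 and 1.24 in endothelial cells. Fibroblast subsets overlapped in this ratio, while the endothelial range lay above those of both fibroblast subsets and the mural cells.

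MFAP5 (ENSBTAG00000000310), a microfibril-associated glycoprotein that binds fibrillin, marked a single subset. DLK1-type fibroblasts held 19.4, 25.2 and 30.1 UMIs per 10000 in calves 1, 2 and 3 and 97.3% of all 1011 MFAP5 UMIs. PAM-type fibroblasts held 0, 0 and 2 UMIs in 318 cells, and mural cells none in 317 cells. Over the 3 calves the DLK1-type level was 809 times the PAM-type level, with an exact 95% counting interval of 223 to 6687, and at least 819-fold higher than in mural cells when a floor of 3 counts is set for that class. After thinning, 88.9% of 27 and 85.4% of 48 DLK1-type cells of calves 2 and 3 had an MFAP5 UMI, with exact 95% intervals of 70.8 to 97.6% and 72.2 to 93.9%. MFAP5 was named among the leading genes of that cluster although it took no part in building it.

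MFAP2 (ENSBTAG00000003832), a related microfibril glycoprotein, had the widest distribution and was the only member whose epithelial level exceeded its endothelial and mural levels in every calf. DLK1-type fibroblasts held 6.94, 7.08 and 9.07 UMIs per 10000 and PAM-type fibroblasts 5.04, 7.49 and 5.49, which overlap. Epithelial cells held 1.2, 1.03 and 0.888, above endothelial cells at 0.697, 0.229 and 0.272 and mural cells at 0.355, 0.205 and 0.342 in every calf. With 19989 epithelial cells in the data, they contributed 93.8% of all 20164 MFAP2 UMIs.

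The bridging proteins MFAP4 (ENSBTAG00000006187), a fibrinogen-domain protein that binds tropoelastin, FBLN1 (ENSBTAG00000012088) and FBLN5 (ENSBTAG00000018123), fibulins of elastic fibres and basement membranes, were expressed in both fibroblast subsets. MFAP4 stood at 7.30, 9.58 and 7.09 UMIs per 10000 in DLK1-type and 7.56, 11.1 and 5.80 in PAM-type fibroblasts, and at 0.710, 0.936 and 0.323 in mural cells. The ranges of the subsets overlapped, and endothelial cells had a single MFAP4 UMI in 1331 cells. FBLN1 stood at 8.03, 17.7 and 24.98 in DLK1-type and 26.2, 20.3 and 28.7 in PAM-type fibroblasts, against 0, 0.176 and 0.304 in mural cells. FBLN5 stood at 1.10, 3.08 and 1.93 in DLK1-type and 2.52, 2.59 and 2.92 in PAM-type fibroblasts. Unlike MFAP4 and FBLN1, FBLN5 also had an endothelial level, 0.182, 0.138 and 0.145 UMIs per 10000, against 0, 0.0239 and 0.00266 in immune cells.

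LOX (ENSBTAG00000012994), the copper enzyme that starts the cross-linking of elastin and collagen, was sparse: 138 UMIs in all, 55.1% of them in DLK1-type fibroblasts. Its level there was 1.83, 1.43 and 2.66 UMIs per 10000, and 1.51, 0.245 and 0.809 in PAM-type fibroblasts. EMILIN1 (ENSBTAG00000011324), which regulates elastin deposition, gave 11 UMIs in 11 cells, of which 3 lay in fibroblasts, and was below the low-count filter, so it entered no main test. With no filter on low counts all 9 members were called higher in fibroblasts than in epithelium, EMILIN1 on 3 against 5 UMIs.

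The first comparison asks how the fibroblast subsets differ. Of the 8 members tested, MFAP5, FBN1 and LOX were higher in DLK1-type than in PAM-type fibroblasts and none was lower. Across all 6705 genes tested, 6.07% differed, with 2.97% higher and 3.10% lower. The 3 genes gave log2 differences of 9.85 ± 0.55 (SE) for MFAP5, 1.36 ± 0.34 for FBN1 and 1.99 ± 0.60 for LOX, with adjusted p = 9.58e-13, 0.00970 and 0.0434 in edgeR's quasi-likelihood test with calf as a block (n = 3 calves). The fitted MFAP5 value depends on how counts of 0 are handled. ELN missed the threshold at 1.13 ± 0.39 (adjusted p = 0.0831), as did MFAP2 at 0.56 ± 0.38, MFAP4 at 0.28 ± 0.30, FBLN5 at -0.06 ± 0.31 and FBLN1 at -0.25 ± 0.38. The median over the 8 members was 0.85, beside -0.05 over all genes. Classes were formed from the same cells, so these p-values do not come from independently sorted populations.

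The FBN1, LOX and ELN calls rested on individual calves. Without calf 2 the FBN1 difference was 1.02 (edgeR adjusted p = 0.415) and without calf 3 it was 1.42 (adjusted p = 0.119). LOX missed the threshold without any of the 3 calves, at 2.17, 1.69 and 2.16 without calves 1, 2 and 3 (adjusted p = 0.121, 0.115 and 0.188), and passed in 6 of 15 alternatives, against 10 for FBN1 and 15 for MFAP5, whose difference was 3.63 when cells were classed by marker counts. ELN passed without calf 1, at 1.57 (adjusted p = 0.0166), and when only the DLK1-type and mural sums of calf 1 with their epithelial marker counts were left out, at 1.48 (adjusted p = 0.0234). Without the block, FBN1 and LOX were not called (adjusted p = 0.0767 and 0.101).

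**Figure D3:**
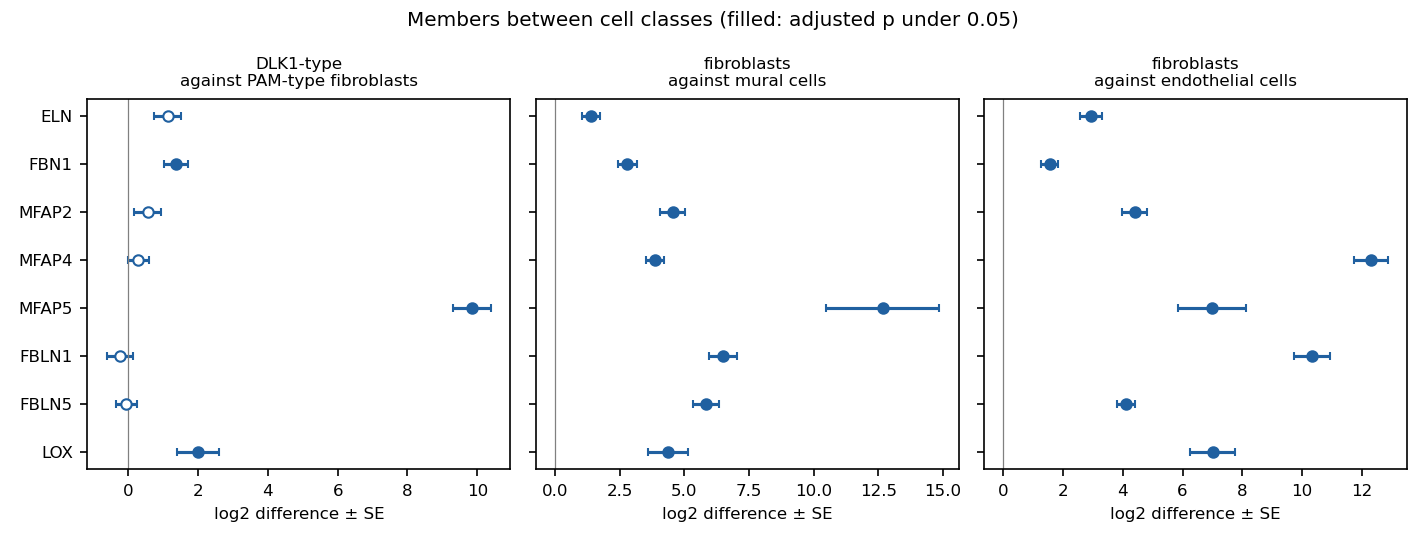
Log2 difference (horizontal axis) with its standard error for the 8 tested members in 3 comparisons between cell classes, filled where the adjusted p was under 0.05. MFAP5, FBN1 and LOX are filled in the comparison of fibroblast subsets, and all 8 are filled and right of 0 against mural and endothelial cells. There MFAP5 and MFAP4 values depend on counts at or near 0, and FBLN1 and LOX had 10 and 5 endothelial UMIs.

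Against mural cells, all 8 members tested were higher in the mean of the fibroblast subsets. In this contrast 14.9% of all genes differed, with 7.46% higher and 7.41% lower. That mean does not describe each subset. PAM-type cells had only 2 MFAP5 UMIs in 318 cells, all in calf 3, and mural cells had 0. The PAM-type ELN level lay below the mural level in calf 2 (9.94 against 11.7) and above it in calves 1 and 3. FBLN1 differed by 6.49 ± 0.53, FBLN5 by 5.84 ± 0.49, MFAP2 by 4.55 ± 0.49, LOX by 4.38 ± 0.77 and MFAP4 by 3.86 ± 0.35 log2 units, with adjusted p from 3.55e-10 to 9.74e-05 in edgeR's quasi-likelihood test. FBN1 differed by 2.80 ± 0.36 (2.13 without calf 3), and ELN had the smallest difference, 1.39 ± 0.35 (edgeR adjusted p = 0.00563). Without calf 3 the ELN difference was 1.11 and missed the threshold (adjusted p = 0.142), and it was 0.55 when cells were classed by marker counts (adjusted p = 0.449). MFAP2 was at 3.43 with doublets kept, and FBLN5 and MFAP4 at 5.03 and 3.16 with cells classed by marker counts, all still called. MFAP5, at 0 in mural cells, lost its call without calf 3 (adjusted p = 1). The median over members was 4.46, beside -0.04 over all genes.

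Against endothelial cells all 8 members were again higher in the mean of the fibroblast subsets, with 33.0% of all genes different, 15.3% higher and 17.7% lower. The differences were smallest for FBN1 at 1.56 ± 0.28 and ELN at 2.94 ± 0.38, followed by FBLN5 at 4.11 ± 0.30 and MFAP2 at 4.39 ± 0.42, which was 3.67 without calf 2 and 3.55 with doublets kept (edgeR adjusted p from 4.05e-12 to 5.39e-05 in the fit of all calves). FBLN1 differed by 10.3 ± 0.61, by 11.95 and 9.22 without calves 2 and 3 and by 8.75 with doublets kept. It had only 10 UMIs in 1331 endothelial cells, so the size of this difference is uncertain. LOX and MFAP4 had still fewer endothelial counts, and their pooled ratios are given. LOX was 145 times higher in fibroblasts (5 endothelial UMIs, exact 95% counting interval 60.4 to 456) and MFAP4 5243 times (1 endothelial UMI, 938 to 207342). The fitted LOX difference of 7.01 was 8.93 without calf 2 and 5.29 without calf 3. MFAP5 again lost its call without calf 3 (edgeR adjusted p = 1). The median over members was 5.69, beside -0.11 over all genes.

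Within the endothelium, elastic fibre genes differed between 3 clusters. The largest (948 cells, led by PLVAP, a protein of fenestrated capillaries) held 0.605, 1.79 and 0.366 ELN UMIs per 10000 in calves 1, 2 and 3, and the second (339 cells, with CLDN5, SOX17 and CYP1A1) held 5.51, 5.57 and 1.53. A cluster of 44 cells held 25.2, 14.2 and 39.4, above both other endothelial clusters in every calf. This small cluster is lymphatic-like by its markers: CCL21 was present at 21.0 UMIs per 10000 against 0 in the other endothelial clusters, MMRN1 at 8.59 against 0.217 and 0.0585, and PROX1 at 0.167 against 0.0152 and 0.00650. PROX1 was found in only 6.82% of the 44 cells, so its level rests on few UMIs. CCL21, a lymph node homing chemokine, was found in 18.2% of its cells, MMRN1 in 45.5% and LYVE1 in 31.8%, against 28.3% in the PLVAP cluster, so not every cell carried these markers and LYVE1 did not set the cluster apart. ELN was found in 97.7% of the cells.

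The 44 cells, 3, 13 and 28 per calf, carried 27.3%, 13.4% and 63.1% of the endothelial ELN UMIs. Without them the endothelial ELN level was 1.49, 2.44 and 0.734 UMIs per 10000, and the log2 difference of ELN between fibroblasts and endothelium grew from 2.94 to 3.57 (edgeR adjusted p = 5.02e-08). FBN1 showed another order: 0.869, 1.29 and 0.972 in the PLVAP cluster, 2.75, 4.41 and 5.18 in the SOX17 cluster and 4.20, 2.44 and 4.97 in the lymphatic-like cluster, the last with 3 FBN1 UMIs in calf 1. Both smaller clusters lay above the PLVAP cluster in every calf and overlapped with each other. FBLN5 was highest in the SOX17 cluster, at 1.03, 0.449 and 0.397 against 0, 0.0782 and 0.0218 in the PLVAP cluster, and 67 of the 91 endothelial FBLN5 UMIs lay there. No test was made between clusters of a class.

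**Figure D4:**
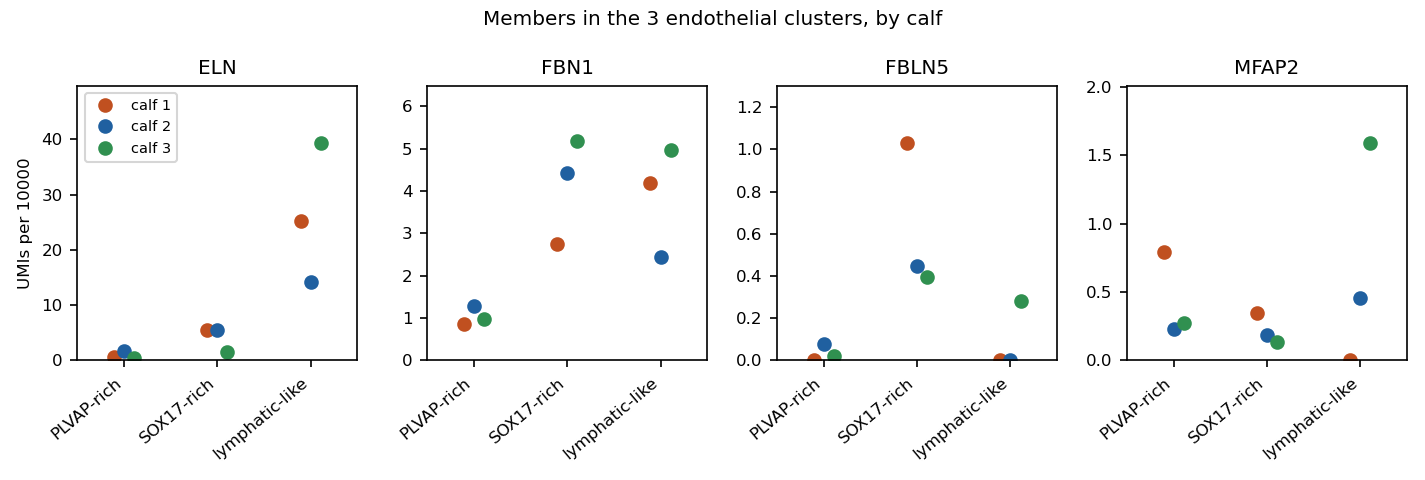
Level of ELN, FBN1, FBLN5 and MFAP2 (UMIs per 10000, vertical axes starting at 0) in 3 endothelial clusters, 1 point per calf. ELN was highest in the lymphatic-like cluster of 44 cells in each calf, FBN1 was higher in both smaller clusters than in the PLVAP cluster, and FBLN5 was highest in the SOX17 cluster.

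Endothelium and epithelium divided the set between them. ELN, FBN1 and FBLN5 were higher in endothelial cells, by 7.36 ± 0.48, 5.07 ± 0.34 and 4.98 ± 0.35 log2 units, and MFAP2 and FBLN1 were lower, by -2.13 ± 0.40 and -2.94 ± 0.62 (edgeR adjusted p from 6.34e-14 to 0.000217). In this contrast 48.7% of all genes differed, 23.0% higher and 25.7% lower, so the count of 6 called members out of 8 is to be read beside a high background. MFAP5 made up the sixth call at 2.20 ± 0.79 (edgeR adjusted p = 0.0224) from 5 endothelial and 18 epithelial UMIs and lost it without calf 3 (1.02, adjusted p = 0.714). LOX at 2.53 (adjusted p = 0.0560) and MFAP4 at -1.21 (adjusted p = 0.440) did not pass, and LOX passed without calf 3 (3.96, adjusted p = 0.00432). The FBLN1 difference, which rests on 10 endothelial UMIs, ranged from -5.06 without calf 2 to -2.25 without calf 3, and ELN was 8.12 without calf 2. It was -1.47 for FBLN1 and -1.38 for MFAP2 when doublets were kept. Between fibroblasts and epithelium all 8 were higher in the mean of the fibroblast subsets (43.9% of all genes differed, 18.8% higher and 25.1% lower). The differences ran from 2.27 ± 0.34 for MFAP2 to 11.1 ± 0.40 for MFAP4 (edgeR adjusted p from 9.16e-19 to 2.79e-06). FBLN1 was at 8.02 without calf 1 in place of 7.38, and MFAP5 was not called without calf 3 (adjusted p = 1).

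MFAP2 changed along the epithelium. Among 10 epithelial clusters of at least 700 cells, it was highest in a cluster led by RGS4 and PLAC8, at 2.31, 1.77 and 1.69 UMIs per 10000 in calves 1, 2 and 3, and lowest in the cluster led by KRTDAP and SPINK5, genes of keratinizing cells, at 0.280, 0.144 and 0.264. The highest and the lowest cluster were the same in all 3 calves, and the levels between them differed 8.23, 12.3 and 6.39-fold. The KRTDAP cluster was also the deeper (median 12120 UMIs per cell against 6700), and after thinning 2.66% of its cells and 30.3% of those of the RGS4 and PLAC8 cluster had an MFAP2 UMI. Cells of the S phase (led by UHRF1 and MCM3) and of mitosis (led by CENPF and TOP2A) lay in the lower part, at 0.663 and 0.490 over all calves.

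FBLN1 followed another epithelial order, at much lower levels. It was highest in the mitotic cluster of calves 1 and 2, at 0.209 and 0.271 UMIs per 10000, and in calf 3 in a cluster led by TNFRSF6B, at 0.149 beside 0.127 in the mitotic cluster. The KRTDAP cluster was again lowest, at 0.00719, 0.0257 and 0.0305. FBN1 in epithelial clusters stayed between 0 and 0.104 UMIs per 10000.

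**Figure D5:**
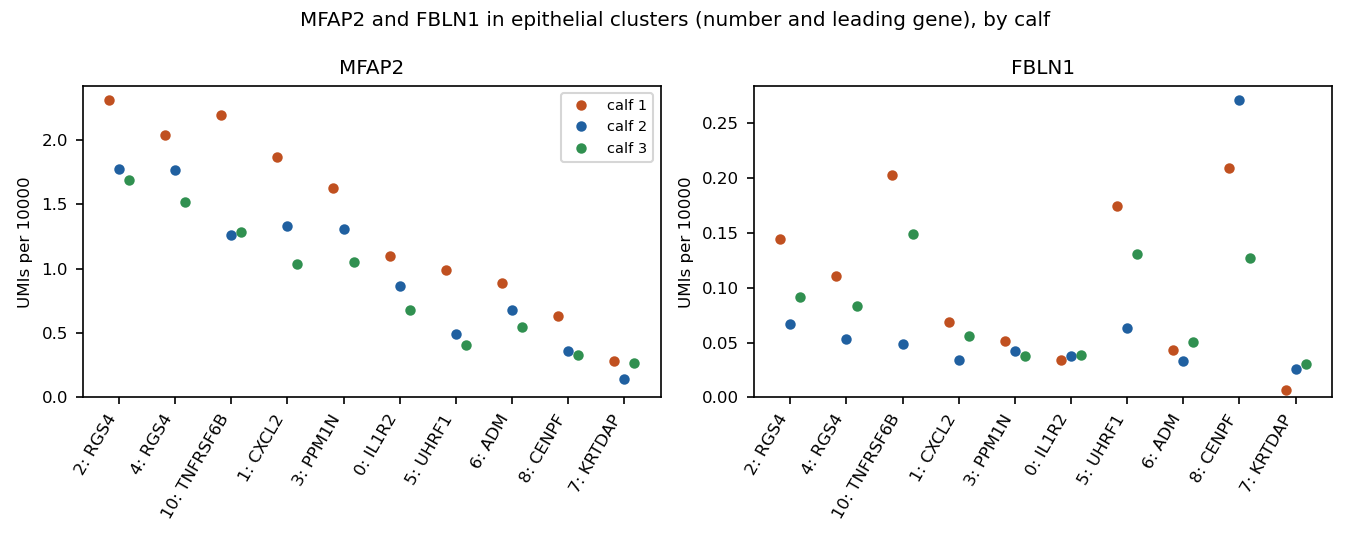
Level of MFAP2 and FBLN1 (UMIs per 10000, vertical axes starting at 0) in 10 epithelial clusters named by number and leading gene and ordered by MFAP2, 1 point per calf. MFAP2 was highest in an RGS4 cluster and lowest in the KRTDAP cluster in each calf, whereas FBLN1 was highest in the mitotic CENPF cluster of calves 1 and 2 and in the TNFRSF6B cluster of calf 3.

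The ratio of the members to each other also differed between classes. Fibroblasts held 0.854 MFAP2, 2.79 FBLN1, 0.719 FBN1 and 2.31 ELN UMIs per MFAP4 UMI, and epithelial cells held 386, 29.6, 14.1 and 4.45, from 49 MFAP4 UMIs. The fibroblast collagens COL3A1 and COL1A1 had 24.6 and 13.7 UMIs per MFAP4 UMI in fibroblasts and 17.2 and 6.98 in epithelial cells. Endothelial cells, with a single MFAP4 UMI, held 1332 FBN1 and 1428 ELN UMIs. KRT5, a keratin of basal epithelium, stood in endothelial cells at 4.78%, 6.44% and 4.23% of its epithelial level, and MFAP2 at 58.1%, 22.3% and 30.6%. In immune cells MFAP2 stood at 0%, 46.6% and 9.89% and KRT5 at 7.07%, 12.7% and 7.18%. The part of free RNA from any class in these values was not tested.

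Within the fibroblast subsets most pairs of members were found in the same cell about as often as their single shares give. In PAM-type fibroblasts of calf 3, the only fibroblast group with at least 50 cells of 2000 UMIs, cells with both genes of a pair were counted. That number was 0.998 times (median of 20 pairs) the number expected from their shares, with a range of 0.752 to 1.38. Here FBLN1 was in 94.7% and ELN in 75.4% of the cells, which caps the ratio of pairs with these genes. A ratio near 1 therefore cannot decide whether such genes go together. With cells thinned to 1000 UMIs, DLK1-type fibroblasts gave medians of 1.028 and 1.052 over 24 and 26 pairs in calves 2 and 3. Of 23 pairs measured in both calves, ELN with FBN1 was the only pair with a Spearman correlation over 0.2 in each, 0.32 in 62 cells and 0.38 in 72 cells. Another 2 pairs were under -0.1 in both calves, and 8 pairs changed sign between the calves. In PAM-type fibroblasts at the same depth, none of 15 pairs was over 0.2 in both calves and 9 changed sign, with ELN and FBN1 at 0.08 and 0.11. In endothelial cells ELN and FBN1 were found together in 58 cells where 47.2 were expected in calf 2 and in 47 where 29.3 were expected in calf 3, a ratio of 1.23 and 1.60, or 1.76 and 1.75 at 1000 UMIs (6 where 3.09 were expected in calf 1), and that class mixes clusters in which both genes are high or low. In mural cells of calves 2 and 3 the ratio for the same pair was 0.790 and 0.522, from 6 and 3 cells with both. Cells of a calf are not replicates and these values carry no test.

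The partners of the set followed the same outline in fibroblasts and left gaps in the endothelium. Of 18 microfibril and elastic fibre partners, 13 were tested: 9 were higher in fibroblasts than in mural cells and 1 lower, 9 higher and 1 lower than in endothelial cells, and 10 higher and none lower than in epithelial cells, beside 14.9%, 33.0% and 43.9% of all genes that differed in these contrasts. FBN2, the fetal fibrillin, stood at 2.19, 5.44 and 4.90 UMIs per 10000 in DLK1-type and 10.6, 8.19 and 10.3 in PAM-type fibroblasts, lower in DLK1-type cells in every calf, though its difference missed the threshold (log2 -0.79 ± 0.40, edgeR adjusted p = 0.310). It was at 0, 0.0118 and 0.0318 in endothelial cells, where FBN1 had a level. FBN2 and EFEMP1 were lower in endothelium than in epithelium, by -4.79 and -4.90 log2 units. LTBP1 and BGN were higher in endothelium, by 4.63 and 3.94 (edgeR adjusted p from 4.2e-12 to 1.9e-07 for these 4 genes). EFEMP2, a fibulin needed for elastic fibres, had 207 fibroblast and 2 endothelial UMIs, and LOXL1, the lysyl oxidase of elastin renewal, 245 and 1. FBLN2, a fibulin of vessel walls, was lower in the mean of the fibroblast subsets than in endothelium, by -1.84 ± 0.37 (edgeR adjusted p = 0.000166). It stood at 2.58, 2.37 and 3.83 UMIs per 10000 in endothelial cells. FBLN2 was 3.44 log2 units higher in DLK1-type than in PAM-type cells, so this mean does not describe each subset. VCAN, EFEMP1 and LTBP4 were the other partners with the largest excess over mural cells, at 4.45, 4.07 and 4.03 log2 units, after FBN2 at 6.33 (edgeR adjusted p from 5.65e-09 to 2.45e-05).

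Between the fibroblast subsets 4 of the 13 partners were higher in DLK1-type cells and none lower, beside 2.97% and 3.10% of all genes. FBLN2 differed by 3.44, BGN, a small proteoglycan, by 2.30 and LTBP1, which tethers latent TGF-beta to microfibrils, by 1.67 log2 units (edgeR adjusted p = 8.97e-05, 0.000490 and 0.0104). Unlike those of the members, calls of single genes of the 4 lists were not followed when a calf was left out. Over all genes, leaving out a calf lowered the number called higher between the subsets from 199 to between 99 and 194. EMILIN2, a relative of EMILIN1, had 9 UMIs in DLK1-type and none in PAM-type cells, at least 4.93-fold higher against a floor of 3 counts. Of 9 tested genes of the lysyl oxidase family and its activation, FN1 (2.91), BMP1, the protease that activates LOX (2.30), and PCOLCE (1.34) were higher and POSTN, a matricellular scaffold for that protease, lower (-3.07, edgeR adjusted p = 3.97e-05). BMP1 and FN1 were thus higher in DLK1-type cells, as was LOX, whose call was lost when any 1 calf was left out. LOXL1 stood at 0.730, 2.00 and 1.98 in DLK1-type and 6.55, 2.69 and 3.06 in PAM-type cells and was not called (-0.62 ± 0.35, edgeR adjusted p = 0.396).

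Elastin-degrading proteases and their inhibitors, 8 of them tested, gave 2 higher and 1 lower between the subsets, beside 2.97% and 3.10% of all genes. Higher in DLK1-type cells were CST3, the cathepsin inhibitor cystatin C (3.11), and TIMP2 (1.71), and lower was MMP14 (-0.95, edgeR adjusted p = 0.0311). Against endothelium 4 were higher in fibroblasts, among them MMP2 (5.79), TIMP2 (3.54) and MMP14 (2.99), and 3 lower, beside 15.3% and 17.7% of all genes. TIMP4, a metalloproteinase inhibitor of vessels, had 804 endothelial UMIs and none in fibroblasts, at least 40.2-fold higher against the floor of 3 counts. Against mural cells, where 7.46% of all genes were higher and 7.41% lower, 4 were higher, with MMP2 (5.24), MMP14 (2.77) and CTSK (1.90), and TIMP3 was lower (-2.85, edgeR adjusted p = 8.23e-07). Against epithelium 6 were higher in fibroblasts and none lower, beside 18.8% and 25.1%. Endothelial cells had 5 higher and 2 lower than epithelium, beside 23.0% and 25.7%, with TIMP4, CTSK and MMP2 leading.

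Of 9 tested TGF-beta ligands and fibre-binding receptors, TGFB3 and TGFB2 were higher in DLK1-type than in PAM-type fibroblasts, beside 2.97% of all genes. The integrin ITGB1 was lower (-1.11, edgeR adjusted p = 0.0195), beside 3.10% of all genes. TGFB3 had 28 and 1 UMIs, a ratio of 46.0 with an exact 95% counting interval of 7.61 to 1882, and TGFB2 differed by 2.39 log2 units (adjusted p = 0.0109). Counts over the remaining contrasts were 3 higher and 2 lower in fibroblasts against mural cells, 4 and 2 against endothelium and 7 and 0 against epithelium. For the lysyl oxidase list they were 5 and 0, 7 and 2, and 7 and 0 of 9. Beside these, 7.46% and 7.41%, 15.3% and 17.7%, and 18.8% and 25.1% of all genes were higher and lower in the same contrasts. For both lists, the 2 lower against endothelium lie near that background. Endothelium against epithelium gave 5 higher and 5 lower partners of 13, 4 and 1 of the lysyl oxidase list and 5 and 2 of the TGF-beta list, of 9 each, where 23.0% of all genes were higher and 25.7% lower, and several of these counts lie near that background. The median log2 difference of the partners was 0.36 between the subsets, 2.96 against mural cells, 4.15 against endothelium, 3.36 against epithelium and -0.50 between endothelium and epithelium, beside -0.20 to -0.04 over all genes. In the same order it was -0.34, 1.86, 2.33, 2.81 and 0.65 for the lysyl oxidase list, 0.25, 1.36, 1.36, 1.63 and 2.80 for the proteases and inhibitors and -0.06, 0.57, 0.41, 1.65 and 1.28 for the TGF-beta list. The lysyl oxidase list thus had a median below 0 between the subsets although 3 of its genes were called higher and 1 lower.

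Across 14 sums of a class and calf with at least 20 cells each, the genes with the most similar profile were found by Pearson's r of log2(UMIs per 10000 + 0.1) among 5686 genes, as a description. ELN was most like SAMD4A (0.98), PLAC9 (0.97) and the basement membrane nidogen NID2 (0.96), and FBN1 most like the related nidogen NID1 (0.98), PTGDS (0.98) and IGF2 (0.97). MFAP5 was most like DLK1 (1.00), SAA3 (0.99) and NRK (0.99), and LOX most like FBLN7, SERPINF1 and ADAMTS19 (0.98 each). MFAP4 and FBLN1 shared SFRP2 and B3GNT9 among their 3 most similar genes (0.97 to 0.99), FBLN5 had LRRN4CL, PDGFRA and MMP2 (0.97 to 0.98), and MFAP2 had MRC2, COL16A1 and FBN2 (0.93 to 0.94). Among the members ELN and FBN1 correlated at 0.93 and ELN and MFAP2 at 0.49. The 14 points share 3 libraries and differ in depth.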

How the data were processed

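Per the labels and the study's methods, the authors aligned Chromium Single Cell 3' reads with Cell Ranger 3.1.0 to ARS-UCD1.2 and deposited raw UMI counts per gene and barcode, the unit used throughout. Barcodes with 500 to 4000 genes were kept unless they exceeded 50000 UMIs or had over 40% of UMIs from mitochondrial genes, and the barcodes with the highest scrublet doublet scores (scanpy 1.11.5) were removed at 0.8% per 1000 barcodes (3.77 to 8.42% of a library). Cells were clustered (2000 variable genes without the members and the 4 lists, Harmony over calves, Leiden, leidenalg 0.10.2, resolution 0.8) and clusters were named from markers. The cluster with mitochondrial genes leading stayed unnamed. Counts were summed per calf and class (at least 5 cells), filtered for low counts, scaled by TMM and tested with edgeR 4.0.16 (R 4.3.3), calf as a block, with Benjamini-Hochberg adjustment over 6705 genes; DESeq2 1.42.0 was an alternative. On simulated counts for fibroblasts against epithelial cells (4593 genes), 90.2% of the 164 tested genes that had been changed 4-fold were recovered, and 6.33% of the calls were false. Apart from the changed genes, the simulation gave all classes the same mean profile with a fixed spread. Only well-expressed genes were changed, so these rates need not hold for sparse members or where many genes differ. Shares were taken after thinning cells to 2000 UMIs, with exact Clopper-Pearson 95% intervals, which cover counting error only, as do the floors of 3 counts. Each class came from the same 3 animals, which is what pairs the sums. Of each list, up to 4 genes past the threshold with the largest difference were named, and LOXL1, FBN2, FBLN2 and EFEMP2 were also described outside that rule after their values were seen. TIMP1 was not analysed here. No coordinates are given because the annotation at hand (ARS-UCD2.0) is of another build. The members and lists were chosen with earlier results of these data known, and clusters, ELN-rich cells and epithelial clusters were singled out after their values were seen.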

Additional observations from a re-analysis of the deposited data

How the results depend on the processing

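Of 600 alternative values of single members, 571 kept their side of the threshold, 23 lost the call and 6 gained it. No called value changed sign, while 8 values that were not called did, for FBLN1, FBLN5 and MFAP4 between the fibroblast subsets. Calls on ELN, FBN1 and LOX between the fibroblast subsets are those given in the report. Each comparison was refitted with 15 alternatives, 2 of them (without the lymphatic-like cluster, and without the DLK1-type and mural sums of calf 1) chosen after seeing the data. Of 300 counts of calls, 271 stayed within 1.5 times. Between the fibroblast subsets, 199 genes were higher and 208 lower. Classing by marker counts gave 73 and 94 with 1 member higher in place of 3, the DESeq2 Wald test also gave 1 member, and without the replicate block there were 115 and 129 genes and 1 member. Leaving out each calf gave 99 to 194 higher and 99 to 179 lower genes and 1 to 3 members (the fewest without calves 2 and 3). Against mural cells (500 higher, 497 lower) the range was 185 to 511 and 268 to 639, against endothelium 570 to 1133 higher (1024 in the fit of all calves), against epithelium (1261 higher, 1685 lower) 808 to 1417 and 1018 to 1730, and for endothelium against epithelium 985 to 1816 lower (1722). Against epithelium, DESeq2 size factors gave 1833 higher and 1106 lower genes, 62.4% higher in place of 42.8%, with a median over all genes of 0.18 in place of -0.20, and the DESeq2 Wald test gave 2030 and 1049. Without a low-count filter, 2578 genes were lower in fibroblasts than in epithelium, and 2684 higher and 3387 lower in endothelium. For endothelium against epithelium DESeq2 size factors moved the share of higher calls from 47.2% to 59.99% and the median from -0.09 to 0.16. All members called higher in fibroblasts stayed higher under these scalings. The block changed no other call of a member than FBN1 and LOX between the subsets and ELN against mural cells (1.23, edgeR adjusted p = 0.143 without it). The causes were not tested. Of 324 levels 313 moved by less than the spread between calves, as did 83 of 162 shares, and at 1000 UMIs per cell 5 of 6 co-expression medians moved. The number of cells limits the fibroblast and mural values of calf 1.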
